A study of Mus musculus with 16 samples.

Results

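The 10 genes described here are the transmembrane and membrane-anchored matrix metalloproteinases Mmp14, Mmp15, Mmp16, Mmp17 and Mmp24, the secreted gelatinase Mmp2, the inhibitors Timp1, Timp2 and Timp3, and Reck. They were chosen by gene symbol, with a large difference of Mmp15 between the groups already known, and all 10 are among the 17655 genes listed. RNA had been sequenced from mouse cells named preSC, a precancerous stage of SCLC (small cell lung cancer), labelled as neuroendocrine lung cells positive for Chga. Every sample carries the same genotype, null for Rb1 and Trp53 and heterozygous null for Rbl2, and was given doxycycline at 1 µg/mL for 48 hours. The "empty" group (8 samples) had received a lentivirus with no insert as control, and the "Wnt5a" group (8 samples) a lentivirus with Wnt5a, a secreted Wnt ligand. The labels name no promoter for the vector and do not say whether the cells are clones, how many lines were used or what sets one numbered sample apart from the next.

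Matrix metalloproteinases are zinc proteases, made as inactive precursors, that cut extracellular matrix and proteins of the cell surface. The membrane-type enzymes act at the surface of the cell that makes them. Mmp14, Mmp15, Mmp16 and Mmp24 span the membrane, whereas Mmp17 is held by a lipid anchor. Timp proteins bind the active site and block it, and Timp2 also bridges secreted pro-Mmp2 to Mmp14 on the surface, where pro-Mmp2 is activated. Reck is a lipid-anchored surface protein that restrains several of these proteases. In tumours the family is known for its part in invasion and in the release of growth factors and adhesion molecules.

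Values are normalised read counts, each a whole number of reads divided by one factor per sample. Recovered totals were 7526676 to 8859862 reads per sample, with 14719 to 15013 genes detected. Within a group, samples 1 to 4 differed from each other by little more than sampling noise, as did samples 5 to 8 (index of dispersion 0.987 to 1.05, against 5.23 to 5.44 across these sets). Each set was therefore averaged and counted as 1 sample, giving libraries A and B in each group (n = 2). The SD quoted is that between these libraries, which may be technical. The SE of a log2 difference comes from the limma fit over all genes compared, which draws each gene's variance toward a common trend. The Wnt5a libraries were above the empty libraries for Wnt5a itself (1049 and 1509 against 144 and 99.8). The 9 neuroendocrine markers were abundant in all 4 libraries, with a summed value of 58879 to 63462 and Chga at 3007 to 4369.6.

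**Figure D1:**
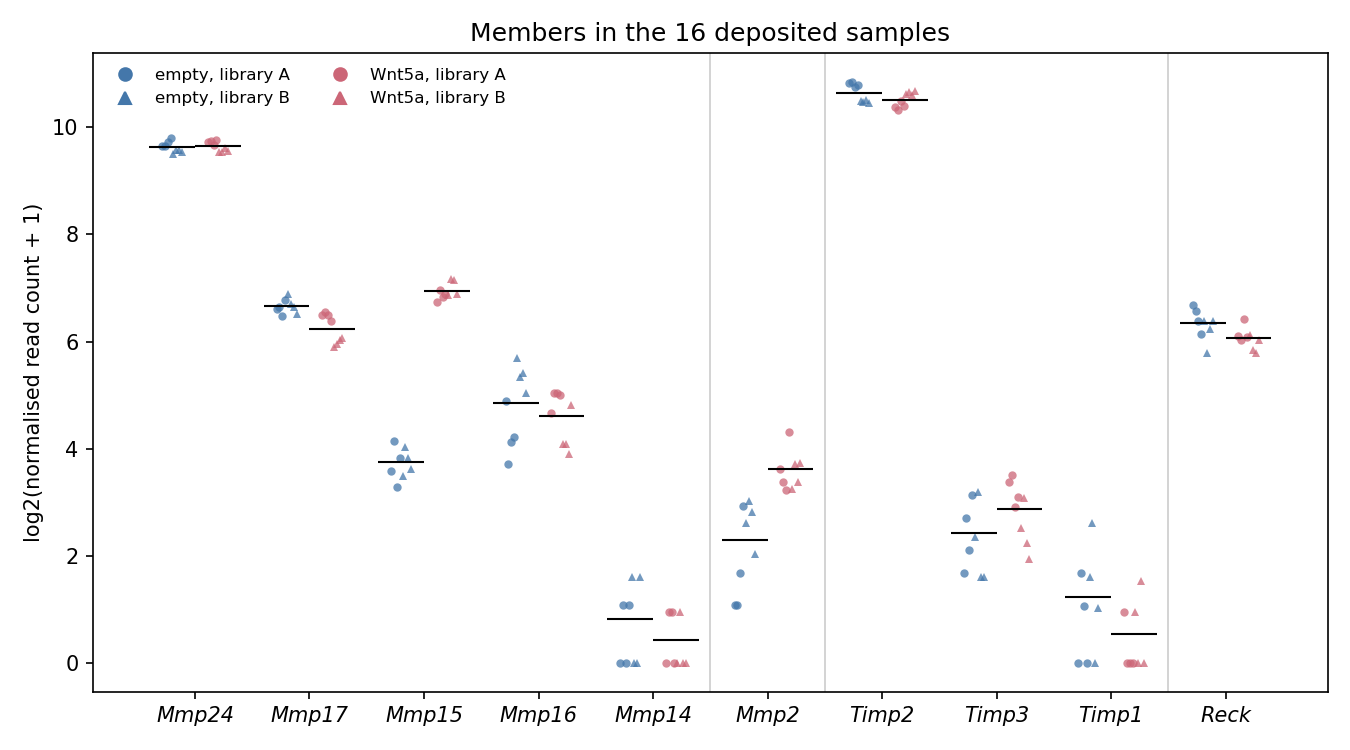
Each point is 1 deposited sample, plotted as log2(normalised read count + 1) for the 10 genes; circles are samples 1 to 4 (library A), triangles samples 5 to 8 (library B), and the black bars are the means of the 2 libraries of a group. Mmp24 and Timp2 lie near the top in both groups, Mmp14 and Timp1 near 0, and Mmp15 is at 8.78 to 16.6 in empty versus 105 to 143 in Wnt5a samples.

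The membrane enzymes were made at very unequal levels, and a single one of them, Mmp24, supplied most of the transcripts in both groups. To compare genes, each value was divided by the length of the gene's longest annotated transcript. On this per-kilobase scale Mmp24 was at 184 ± 14.3 in empty versus 186 ± 14.5 in Wnt5a libraries (SD, n = 2 each), a level above 79.5% of the listed genes in either group. It held 88.3% ± 2.41 of the summed per-kilobase level of the 5 membrane enzymes in empty versus 82.1% ± 0.17 in Wnt5a libraries (SD, n = 2). Mmp24 is known mainly from neurons, where it cuts N-cadherin.

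In the empty libraries Mmp17 followed at 15.6 ± 0.52 per kilobase, then Mmp16 at 5.96 ± 3.14, Mmp15 at 2.42 ± 0.0077 and Mmp14 at 0.24 ± 0.10 (SD, n = 2). In the Wnt5a libraries Mmp15 stood second among the membrane enzymes, at 23.8 ± 1.90 per kilobase, ahead of Mmp17 at 11.8 ± 2.91, Mmp16 at 4.80 ± 1.63 and Mmp14 at 0.11 ± 0.051. The Mmp15 level was above 27.2% of the listed genes in empty versus 41.3% in Wnt5a libraries. The share of Mmp15 in the summed level of the 5 enzymes was 1.17% ± 0.063 in empty versus 10.6% ± 1.65 in Wnt5a libraries (SD, n = 2). The sum itself was 208 ± 10.6 in empty versus 226 ± 17.2 in Wnt5a libraries, a gap close to the spread between libraries.

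**Figure D2:**
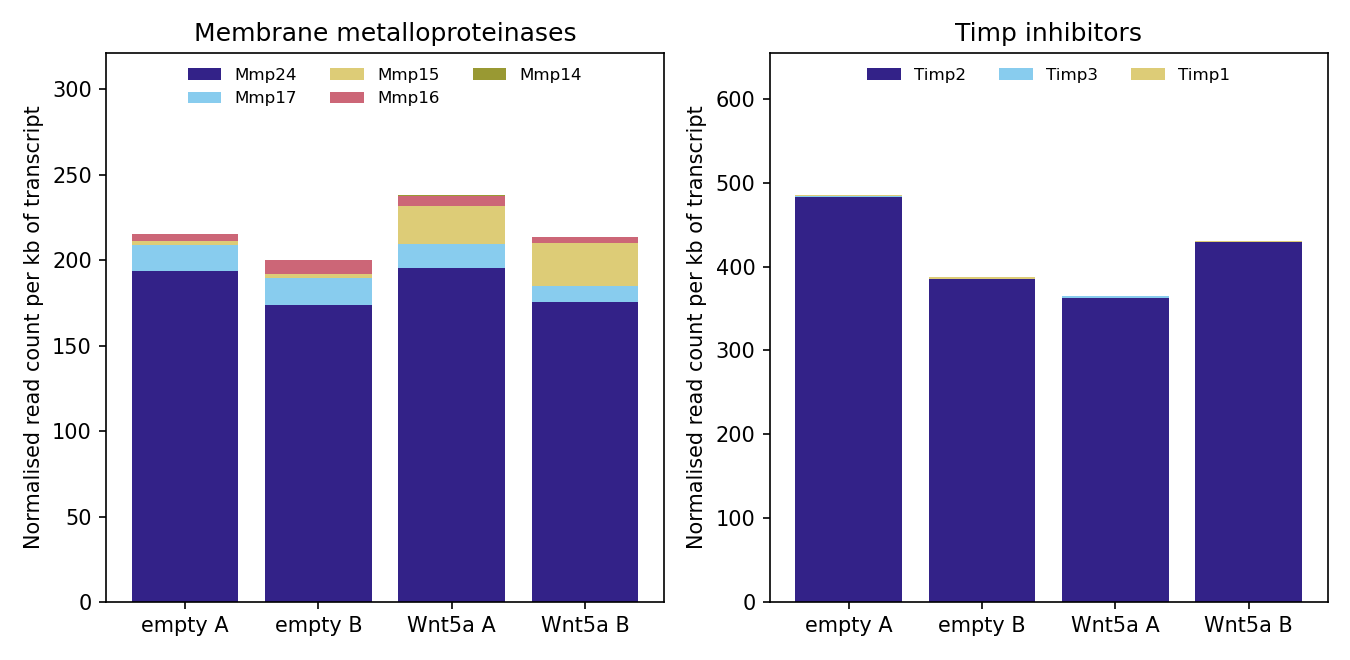
Stacked bars give the normalised read count per kilobase of the longest transcript in each of the 4 libraries, for the 5 membrane metalloproteinases (left) and the 3 Timp inhibitors (right), with axes starting at 0. Mmp24 fills 88.3% of the left bars on average in empty versus 82.1% in Wnt5a libraries, the Mmp15 segment is visible mainly in the Wnt5a libraries, and Timp2 fills nearly the whole of the right bars.

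To show the sequence around the starts of membrane enzymes of high, changing and near-zero level, the RefSeq promoter windows of Mmp24, Mmp15 and Mmp14 (GRCm38.p6; 250 bases before to 50 after the start, plus strand) are given 5′ to 3′. The build behind the deposited values is not given in the sources used here. Capitals mark the GC box letters GGGCGG on either strand, overlapping matches included. The windows are chr2:155775092-155775391 for Mmp24, chr8:95352046-95352345 for Mmp15 and chr14:54431348-54431647 for Mmp14.
Mmp24: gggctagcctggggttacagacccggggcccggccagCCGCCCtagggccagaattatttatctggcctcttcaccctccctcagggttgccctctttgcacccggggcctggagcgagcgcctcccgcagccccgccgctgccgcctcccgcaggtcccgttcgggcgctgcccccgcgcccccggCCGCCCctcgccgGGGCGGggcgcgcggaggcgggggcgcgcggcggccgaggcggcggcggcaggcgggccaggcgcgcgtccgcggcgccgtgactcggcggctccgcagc
Mmp15: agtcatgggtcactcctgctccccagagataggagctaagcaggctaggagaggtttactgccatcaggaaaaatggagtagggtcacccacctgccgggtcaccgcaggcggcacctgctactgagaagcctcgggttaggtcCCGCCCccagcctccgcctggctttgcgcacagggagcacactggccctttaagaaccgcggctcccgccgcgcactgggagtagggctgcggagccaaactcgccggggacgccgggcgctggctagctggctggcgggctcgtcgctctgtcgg
Mmp14: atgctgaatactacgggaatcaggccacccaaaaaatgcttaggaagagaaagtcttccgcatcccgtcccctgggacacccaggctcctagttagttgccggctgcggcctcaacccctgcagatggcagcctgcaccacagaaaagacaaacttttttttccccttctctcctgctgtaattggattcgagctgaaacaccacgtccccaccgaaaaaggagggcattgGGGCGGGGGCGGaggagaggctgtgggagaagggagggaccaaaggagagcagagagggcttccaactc

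The Mmp24 window held 44 CpG dinucleotides and 80.0% G and C, the Mmp15 window 22 and 66.0%, and the Mmp14 window 10 and 56.0%, against a median of 7 CpG over 27025 promoter windows. GC box letters occurred 3 times for Mmp24, 1 time for Mmp15 and 2 times for Mmp14, and 35.9% of all windows hold at least 1. Neither the letters TGACTCA, bound by AP-1 factors, nor TATAAA was in any of these 3 windows on either strand; 5.17% and 14.2% of all windows hold them. The table also held Timp1, Timp2, Timp3 and Reck, with 8, 25, 24 and 23 CpG, and had no entry for Mmp2, Mmp16 and Mmp17. These matches describe the letters of the windows and not binding.

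Mmp15, a transmembrane protease that can activate pro-Mmp2 and cut matrix proteins, differed most. Its normalised read count was 8.78 in the lowest, 12.2 in the median and 16.6 in the highest of the 8 empty samples, and 105, 117 and 143 in the Wnt5a samples. All 8 Wnt5a samples lay above all 8 empty samples, and the groups did not overlap. Of the 12357 genes with a mean value of at least 10, 12.4% had groups that did not overlap in either direction. The 8 samples of a group stand for 2 libraries. The libraries were at 12.4 and 12.5 in empty versus 115 and 129 in Wnt5a, resting on 45, 49, 490 and 550 reads. The mean was 9.80 times higher in the Wnt5a libraries, and the log2 difference was 3.19 (SE 0.15), with 3.11 for the A pair and 3.27 for the B pair.

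This difference was among the values with which the genes were chosen, so it is given as a description without a p-value. Of the 6 members expressed enough to enter the comparison of all genes (a mean value of at least 10), 1 lay past its threshold (a limma adjusted p of 0.05), namely Mmp15, which the choice of genes had fixed. Over all 12357 genes compared, 2.06% passed (1.38% higher and 0.672% lower in Wnt5a), and nothing is read from the members' count against this share. By size of the difference Mmp15 was number 42 of the 171 genes that passed as higher. The median log2 difference of the 6 members was -0.18, against 0.0026 over all genes.

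The genes beside Mmp15 on chromosome 8 did not share its difference. Usb1 and Zfp319 on one side differed by 0.09 and 0.03 on the log2 scale, and Cfap20 and Csnk2a2 on the other by -0.05 and 0.06 (limma adjusted p = 0.787, 0.925, 0.839 and 0.790, in that order). The median over the 685 compared genes of the chromosome was 0.006. Between Mmp2 and Mmp15, which lie on this chromosome, 42 genes are listed and 27 were compared; their median was -0.01, within a range of -0.76 (Cx3cl1) to 0.16 (Dok4).

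Over the 4 libraries, the 5 compared genes whose centred log2 values lay closest to those of Mmp15 were Igfbp2, Tmcc3, Slc9a2, Usp13 and Med12l. Their Euclidean distances were 0.21, 0.29, 0.29, 0.34 and 0.45 log2 units. Igfbp2, which encodes a binding protein of insulin-like growth factors, was at 1.10 and 1.53 in empty versus 20.4 and 22.3 in Wnt5a libraries. Of these 5 genes, Med12l alone was above 5 in the empty libraries (15.2 and 12.0), and it reached 108 and 99.6 in the Wnt5a libraries. With 4 libraries this likeness rests almost wholly on the difference between the groups.

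**Figure D3:**
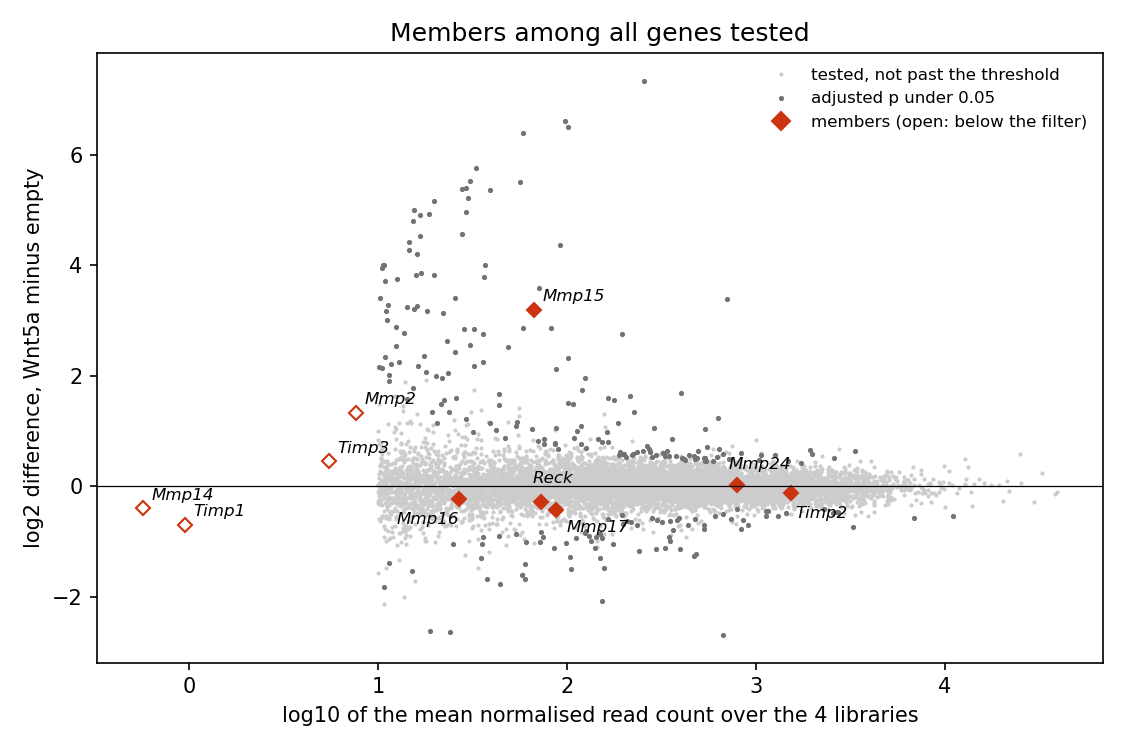
Each grey dot is 1 of the 12357 genes compared, by its mean normalised read count (log10) and its log2 difference, Wnt5a minus empty; darker dots had a limma adjusted p under 0.05, and red diamonds are the 10 members, open where the mean value was under 10. Mmp15 stands at 3.19, well apart from Mmp24 at 0.01 and Timp2 at -0.13.

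Mmp24 was nearly level between the groups. It ran from 722 through a median of 781 to 886 in the empty samples, and from 740.1 through 797 to 866 in the Wnt5a samples. These ranges overlap almost fully. The library values were 834 and 747 in empty versus 843 and 755 in Wnt5a, so that library B stood below library A by the same step in both groups (log2 difference -0.16). The log2 difference between the groups was 0.01 (SE 0.093), and 0.01 in each pair of libraries. The gene span of Mmp24 overlaps that of BC029722, on the opposite strand, whose library values were 152 to 184. Strand use in the counting is not given in the sources used here.

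Mmp17, the lipid-anchored member, spanned 87.8 to 117 in the empty samples (median 99.5) and 58.3 to 93.4 in the Wnt5a samples (median 74.4). The ranges overlap, and Wnt5a library B is the lowest of the 4 libraries. The library values were 97.9 and 103 in empty against 88.8 and 62.4 in Wnt5a, a log2 difference of -0.42 (SE 0.18). The A pair differed by -0.14 and the B pair by -0.71, so most of the difference sits in one library. Within the Wnt5a group, the gap between libraries (0.50 on the log2 scale) was larger than that of 97.8% of the genes compared.

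Mmp16, a transmembrane enzyme best known from brain and cartilage, was the member that varied most between libraries. It spanned 12.2 to 51.0 in the empty samples (median 30.2) and 14.0 to 32.1 in the Wnt5a samples (median 25.8). The library values were 18.8 and 41.0 in empty versus 29.8 and 18.3 in Wnt5a. The groups overlap, and the order of libraries A and B is opposite in them. The log2 difference was 0.64 in the A pair and -1.12 in the B pair, and the difference of the means was -0.24 (SE 0.39). The pooled SD between libraries of a group, 0.64 on the log2 scale, was larger than this moderated SE. Its gap between libraries was larger than that of 99.6% of the compared genes in the empty group and 99.3% in the Wnt5a group, on 68 to 161 reads per library.

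Mmp14, the best studied membrane-type enzyme and the surface activator of pro-Mmp2, was close to undetected. It had 2 and 4 reads in the empty libraries and 2 and 1 in the Wnt5a libraries, around the floor of 3 reads, and 4 of 8 empty and 5 of 8 Wnt5a samples had none. A difference between groups was not detectable at this depth. Its level per kilobase was above 15.0% of the listed genes in empty versus 10.6% in Wnt5a libraries, the lowest of the 10 members in both groups.

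**Figure D4:**
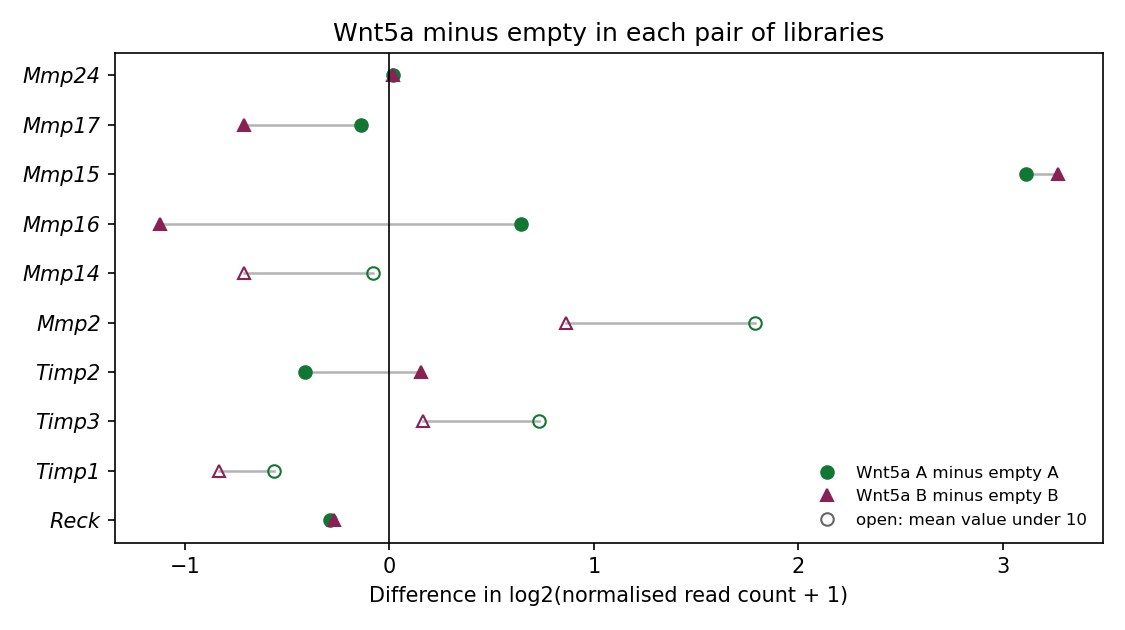
For each member, the difference in log2(normalised read count + 1) between Wnt5a and empty is drawn for the A libraries (circles) and the B libraries (triangles); open symbols mark members with a mean value under 10. The symbols of Mmp15 lie at 3.11 and 3.27 and those of Mmp24 both at 0.01, whereas the symbols of Mmp16 and Timp2 fall on opposite sides of 0.

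Mmp2, the secreted gelatinase that membrane-type enzymes activate, was low in both groups and higher in Wnt5a. Its values ran from 1.10 through a median of 4.09 to 7.11 in the empty samples and from 8.40 through 10.3 to 18.8 in the Wnt5a samples. The groups did not overlap. Of all genes compared, a set that leaves out genes as low as Mmp2, 12.4% had groups that did not overlap. The libraries held 10, 21, 51 and 45 reads (empty A and B, then Wnt5a A and B), and the log2 difference was 1.33, with 1.79 in the A pair and 0.86 in the B pair. At a mean value of 7.66 Mmp2 stayed below the minimum for the comparison, and in the limma fit without that minimum, which took in all 10 members, it did not pass the threshold. In the Wnt5a libraries it reached 3.66 ± 0.33 per kilobase (SD, n = 2), about the level of Mmp16.

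Among the inhibitors Timp2 stood alone. Its values were 1399.7 to 1838 in the empty samples (median 1589.6) and 1285 to 1628 in the Wnt5a samples (median 1493). The ranges overlap, with empty library A highest at 1792, empty B at 1427, and Wnt5a A and B at 1347 and 1590.3. The log2 difference was -0.13 (SE 0.13), lower in the A pair (-0.41) and higher in the B pair (0.16). Timp2 lies on chromosome 11, where the median of 1020 compared genes was 0.17; what sets that median was not tested.

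Per kilobase Timp2 was the most abundant of the 10 members, at 434 ± 69.5 in empty versus 396 ± 46.4 in Wnt5a libraries (SD, n = 2), above 92.5% and 91.7% of the listed genes. It made up 99.4% ± 0.296 and 99.5% ± 0.105 of the summed level of the 3 Timp genes. The ratio of Timp2 to Mmp24 per kilobase was 2.49 and 2.22 in empty versus 1.85 and 2.45 in Wnt5a libraries. The ratio of Timp2 to the sum of the 5 membrane enzymes was 2.24 and 1.92 in empty versus 1.53 and 2.01 in Wnt5a libraries. Neither ratio separated the groups. These are ratios of transcripts, and protein was not measured.

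Timp3, which binds to matrix and also inhibits ADAM proteases, was at 2.03 to 8.13 in the empty samples (median 3.69) and 2.82 to 10.4 in the Wnt5a samples (median 7.01). The ranges overlap, and the libraries rest on 17, 16, 36 and 20 reads. The log2 difference was 0.45, below the minimum value for the comparison. Timp1, the inhibitor often induced in stroma, had 3 and 8 reads in empty versus 1 and 3 in Wnt5a libraries, and 3 of 8 empty and 5 of 8 Wnt5a samples had none. Both genes overlap synapsin genes on the opposite strand (Timp3 with Syn3, at 77.7 to 95.4, and Timp1 with Syn1, at 693 to 929.5). These overlaps are of whole gene spans, and whether exons overlap was not examined. Without a statement on strand, reads from any stretch counted for both genes cannot be told apart.

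Reck spanned 53.9 to 102 in the empty samples (median 82.5) and 54.2 to 85.0 in the Wnt5a samples (median 65.5), with overlapping ranges. The libraries were at 86.9 and 73.4 in empty versus 70.9 and 60.7 in Wnt5a. The log2 difference was -0.28 (SE 0.15), with -0.29 and -0.27 in the A and B pairs; library B was below A in both groups (log2 difference -0.24 and -0.22). Per kilobase Reck stood at 17.6 ± 2.10 in empty versus 14.5 ± 1.58 in Wnt5a libraries (SD, n = 2).

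The full order per kilobase in the empty libraries was Timp2, Mmp24, Reck, Mmp17, Mmp16, Mmp15, Timp1, Mmp2, Timp3 and Mmp14. In the Wnt5a libraries it was Timp2, Mmp24, Mmp15, Reck, Mmp17, Mmp16, Mmp2, Timp3, Timp1 and Mmp14. Reck and Mmp17 differed by no more than the spread between libraries in either group, and the same held for Timp1, Mmp2 and Timp3 in the empty libraries. With the median instead of the longest transcript length, Mmp17 stood above Reck, and Timp2 and Mmp24 kept the first places.

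Cells other than neuroendocrine cells were looked for because Mmp2, Mmp14 and the Timp genes are typical of fibroblasts. Of 7 fibroblast markers 6 are listed; their summed value was 604 and 355 in empty versus 244 and 248 in Wnt5a libraries, nearly all of it Dcn (597 and 340.2, against 241 and 246). Col1a2 and Col3a1 were under 3 reads in every library, and Col1a1 was at 2.21 and 3.56 in empty versus 0.23 and 0.70 in Wnt5a. Summed leukocyte markers stayed between 10.8 and 15.5 (4 of 5 listed), endothelial markers between 3.52 and 5.79 (3 of 4) and lung epithelium markers between 42.5 and 47.9 (4 of 5). Their part in the values of the members was not tested. In bulk RNA, fewer cells of a type and less RNA per cell cannot be told apart.

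The wider protease system was compared next, over 6 lists of genes. The shares of all 12357 compared genes against which their counts can be read are 2.06% past the limma threshold, 16.1% at an unadjusted limma p under 0.05, 1.99% called by edgeR and 4.35% by DESeq2. Beyond the members, the listed metalloproteinases were low apart from Mmp11. Per kilobase Mmp11 was at 50.2 in both groups, above every member but Timp2 and Mmp24. Of 18 other Mmp and Timp genes 9 are listed, and Mmp11 alone was expressed enough to be compared. Mmp11, an enzyme activated inside the cell by furin, was at 112 and 118 in empty versus 112 and 118 in Wnt5a libraries (limma adjusted p = 0.998), and 0 genes of the list passed in limma, at an unadjusted p under 0.05, in edgeR or in DESeq2. The other listed genes were at 3.06 or less in every library, Mmp23 among them (1.64 to 2.75), as were the gelatinase Mmp9 (1.17 to 2.21) and the lipid-anchored Mmp25 (0 to 0.51).

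The ADAM and ADAMTS proteases, which shed surface proteins and cut proteoglycans, were better represented. Of 31 genes 28 are listed and 13 were compared. In limma 0 passed, with a list median of -0.06; 3 had an unadjusted p under 0.05 (16.1% of all genes did), edgeR called 0 and DESeq2 1. Adam10, the main sheddase of Notch and N-cadherin, had the highest level per kilobase (327 in empty versus 313 in Wnt5a), with values of 1502 ± 46.1 and 1438 ± 39.4 (SD, n = 2; limma adjusted p = 0.765). Adam9 followed, at 750.0 ± 46.4 and 758 ± 31.2. Named after their values were seen, the 3 genes were Adamts4 (194 ± 12.7 against 137 ± 5.31), Adamts8 (42.5 ± 0.73 against 28.6 ± 3.02) and Adamts10 (121 ± 2.95 against 83.9 ± 1.25), with limma adjusted p = 0.075, 0.160 and 0.078. DESeq2 called Adamts4. Adamts1, below the minimum value and also named after its value was seen, had 0 reads in empty versus 44 in Wnt5a libraries.

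In the list of proprotein convertases and the plasminogen system, which activate pro-metalloproteinases, 2 of 11 compared genes fell, with a list median of -0.13. At an unadjusted p under 0.05 there were 4, and edgeR and DESeq2 each called 2. Serpine2, an inhibitor of thrombin and plasminogen activators, fell from 3249 and 3021 in the empty to 2238 and 2267 in the Wnt5a libraries (log2 difference -0.48, SE 0.075; limma adjusted p = 0.033). Pcsk2, a convertase of secretory granules that matures prohormones, fell from 3188 and 3152 to 2423 and 2171 (log2 difference -0.47, SE 0.082; limma adjusted p = 0.047). For both genes all 8 Wnt5a samples lay below all 8 empty samples. Of all compared genes, 12.4% had groups that did not overlap, and the 8 samples of a group stand for 2 libraries. Pcsk1, the other granule convertase, was at 7256 ± 156 and 6638 ± 793 (SD, n = 2; limma adjusted p = 0.624), and furin, which cuts the membrane-type precursors, at 808 ± 33.8 and 757 ± 32.2 (Furin; limma adjusted p = 0.652, named after its value was seen). Plau, named after its value was seen, was at 49.3 ± 6.97 and 30.8 ± 4.44 (SD, n = 2; limma adjusted p = 0.145). Pcsk5, a convertase below the minimum value and also named after its value was seen, was higher in Wnt5a. It was at 0 and 0.76 in empty against 12.9 and 8.44 in Wnt5a libraries (3 reads against 91). Its groups did not overlap, which is to be read beside the same 12.4%, a share of genes above that minimum. It lies on chromosome 19, where the median of 412 compared genes was 0.36. Serpine2 lies on chromosome 1, where the median of 690 compared genes was -0.17. Both calls were lost without the filter on low values, with a minimum of 50, without a variance trend, and without Wnt5a library A or B.

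Among surface partners and substrates, 1 of 16 compared genes rose and 1 fell, with a list median of -0.02. At an unadjusted p under 0.05 there were 4, and edgeR called 2 and DESeq2 3. Dag1, the dystroglycan precursor and a substrate of Mmp2, rose from 54.3 and 45.8 to 354 and 327 (log2 difference 2.75, SE 0.13; limma adjusted p = 0.00052). Among the compared genes of chromosome 9 it borders Nicn1, Tcta and Rhoa. These were at no more than 4.69 in empty versus at least 27.7 in Wnt5a libraries. On its other side Bsn, Apeh and Amigo3 differed by 0.13, 0.36 and 0.72 on the log2 scale. Whether the difference of Dag1 is tied to that of its neighbours was not tested. Itgav, an integrin chain that partners the proteases at the surface, fell from 747 and 609 to 408 and 376 (log2 difference -0.78, SE 0.11; limma adjusted p = 0.024). The most abundant per kilobase were the tetraspanin Cd9 and Bsg, an inducer of metalloproteinases in neighbouring cells. Their normalised read counts were 14278 ± 84.4 and 13310 ± 684 for Cd9, and 4371 ± 307 and 3908 ± 6.67 for Bsg (SD, n = 2, limma adjusted p = 0.679 and 0.418). Named after their values were seen, the tetraspanin Cd63 was at 411 ± 67.1 and 571 ± 28.2 and the receptor-like Ptk7 at 15.8 ± 0.71 and 31.2 ± 5.69 (SD, n = 2; limma adjusted p = 0.116 and 0.088). DESeq2 called Cd63 as well as Dag1 and Itgav. The Itgav call was lost without the filter, without a variance trend and without Wnt5a library B.

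Of the 21 compared genes that deliver membrane-type enzymes to the surface or build invadopodia, 0 passed in limma, with a list median of 0.03. At an unadjusted p under 0.05 there were 4 (16.1% of all compared genes were), and edgeR called 0 and DESeq2 2. The 4 were Arpc2 and, named after their values were seen, Sh3pxd2a, Sh3pxd2b and the actin bundler Fscn1 (17.4 ± 6.22 in empty versus 44.4 ± 3.42 in Wnt5a; limma adjusted p = 0.060). The invadopodium scaffolds Sh3pxd2a (83.0 ± 13.3 and 134 ± 16.5) and Sh3pxd2b (10.3 ± 2.44 and 23.1 ± 0.18) had adjusted p = 0.092 and 0.078 in limma. DESeq2 called Fscn1 and Sh3pxd2a, both higher in Wnt5a. Sh3pxd2a lies on chromosome 19 and Sh3pxd2b on chromosome 11, whose compared genes had medians of 0.36 and 0.17. Arpc2, of the highest level per kilobase in the list, had normalised read counts of 3529 ± 152 and 3049 ± 174 (limma adjusted p = 0.265). Its log2 difference was -0.21, and it lies on chromosome 1, whose compared genes had a median of -0.17. The motor Kif5b was at 6089 ± 65.1 and 6120 ± 310 (limma adjusted p = 0.981). The spread is the SD, n = 2 throughout.

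Of the 12 compared basement membrane and matrix substrates, 0 passed in limma, with a list median of -0.04; 2 had an unadjusted p under 0.05 (against 16.1% of all compared genes), and edgeR called 0 and DESeq2 2. The type IV collagen chain Col4a2, a main substrate of the gelatinases, was at 917 ± 16.5 in empty versus 912 ± 38.0 in Wnt5a libraries (SD, n = 2; limma adjusted p = 0.974). Lamc1, the laminin gamma chain, was at 1057 ± 117 and 792 ± 1.87 (limma adjusted p = 0.092), and it lies on chromosome 1 with its median of -0.17. The proteoglycan Dcn, a fibroblast marker named after its value was seen, was at 468 ± 181 and 243 ± 3.35 (limma adjusted p = 0.131). DESeq2 called Lamc1 and Dcn.

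**Figure D5:**
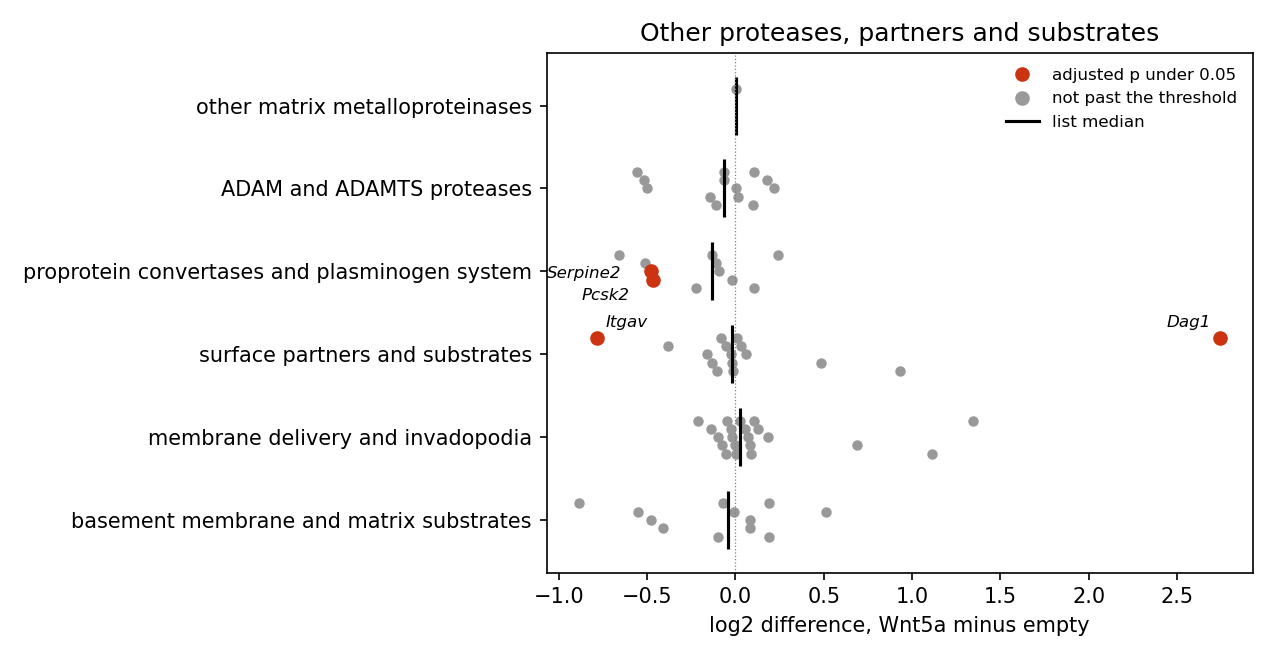
Each point is 1 compared gene of 6 protease, partner and substrate lists, at its log2 difference (Wnt5a minus empty); red points had a limma adjusted p under 0.05 over all genes, and black bars are list medians. The list medians lie between -0.13 and 0.03, and the 4 red points are Serpine2, Pcsk2, Itgav and Dag1.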

How the data were processed

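The deposited files give 1 normalised signal value per gene and sample. The submitters' processing notes name TopHat, Bowtie, HTSeq and DESeq2, without versions; the genome build and annotation are not given in the sources used here. All values (100%, tolerance 0.001 of a step) were whole multiples of 1 step per sample, so whole reads were recovered. Samples of a group with an index of dispersion under 1.5 (over genes averaging 10 reads or more) were merged, with 30220749 (empty A), 32592342 (empty B), 35102931 (Wnt5a A) and 35315408 (Wnt5a B) reads in all. Intervals and floors cover counting error only.

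Genes with a mean value of at least 10 (12357) were compared with limma 3.58.1 (R 4.3.3) on log2(value + 1), its eBayes step using a variance trend; p-values were adjusted by Benjamini-Hochberg across these genes, with a threshold of 0.05; differences on this scale understate those of low genes. Alternatives were other pseudocounts (0.1, 10) and filters, quantile normalization, leaving out single libraries, no trend, a replicate block, and the recovered reads tested by DESeq2 1.42.0 or by the edgeR 4.0.16 quasi-likelihood test with TMM.

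Transcript lengths came from GENCODE M21 (17347 of 17655 symbols) and chromosomes, neighbours and promoters from RefSeq GRCm38.p6 (17623 symbols). Named are the 10 members, Wnt5a and Chga, up to 4 genes past the threshold and the 2 of highest level per kilobase in each list, the 5 genes closest to Mmp15 and 2 neighbours on each side of it; the neighbours of Dag1, the genes overlapping a member and those so marked were named after their values were seen. The members and lists were chosen with earlier results of these data known.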

Additional observations from a re-analysis of the deposited data

How the results depend on the processing

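The log2 difference of Mmp15, chosen for its rise, was 2.55 (pseudocount 10) to 3.29 with all libraries kept; it was the 1 member called under each alternative run, from which, given that choice, nothing is read. Of 57 values of members under alternatives that kept all libraries, 53 moved by less than the spread between libraries. The 4 others were all of Mmp15, at 3.28 and 2.55 with pseudocounts of 0.1 and 10, and 3.29 in both edgeR and DESeq2. Changing the filter, the trend or the block cannot alter a limma log2 difference here. Those values were equal by construction, and no stability is read from them. With one library left out, which leaves a lone sample assumed to vary like the other group, Mmp16 ranged from -0.78 to 0.30, Timp2 from -0.29 to 0.04 and Mmp24 from -0.07 to 0.10. Mmp14 and Timp1 rest on at most 8 reads per library, which limits any comparison of them. The Timp2 to Mmp24 ratio per kilobase in the empty libraries was 2.36, and 2.28 with median transcript lengths.

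The 254 genes called in all became 146 without the filter (130 higher, 16 lower; 94 shared), 102 with a minimum of 50 (60 and 42), 158 without a trend (117 and 41) and 538 with DESeq2 (313 and 225). Leaving out one library gave 138 (without Wnt5a B) to 1098 (without empty B). The convertase count of 2 became 0 without the filter, with a minimum of 50 and without a trend, and the surface partner count of 2 became 1 without the filter and without a trend. The ADAM count of 0 became 1 without the filter (Adamts1) and 1 with DESeq2, the delivery count of 0 became 1 with a pseudocount of 10 (Fscn1) and 2 with DESeq2, and the matrix count of 0 became 2 with DESeq2. With one library left out these counts ranged from 0 to 1 (ADAM), 0 to 3 (convertases), 1 to 5 (surface partners), 0 to 3 (delivery) and 0 to 4 (matrix). The highest came without empty A for convertases and surface partners, and without empty B for the others. The cause was not tested.

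With the replicate block 2095 genes were called (1073 higher, 1022 lower), all 254 among them. By list these were 3 ADAM, 3 convertase, 4 surface partner, 4 delivery and 2 matrix genes. Deviations of same-numbered libraries correlated at 0.44 (Pearson) and 0.53 (Spearman) across 12357 genes, which are not independent replicates. The labels give these libraries only a number in common. With 2 pairs and no label on pairing, what the same-numbered libraries share was not tested, and the main fit has no term for it.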
